A study of Mus musculus with 6 samples.

Results

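The genes followed were Atf4, the transcription factor at the end of the integrated stress response, its relative Atf5, the stress genes Ddit3, Trib3, Chac1 and Asns that ATF4 is known to act on, and 4 genes of serine synthesis and mitochondrial folate metabolism, Phgdh, Psat1, Shmt2 and Mthfd2. They were taken by symbol from the deposited table of 55487 genes. The 10 symbols matched 11 rows, because Ddit3 stands there with a second identifier that had no reads in any library, which left 10 rows with reads. All 10 passed the filter on low values described below, Trib3 with 2 THC and 3 TKO libraries at the minimum.

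RNA-seq was done on YFP-positive cells sorted from the subventricular zone, the adult mouse niche that lies along the lateral ventricles and holds neural stem cells. The THC group (n = 3) was Rb(F/+);p107(+/-);p130(F/+), and the TKO group (n = 3) was Rb(F/F);p107(-/-);p130(F/F). Mice of both genotypes carried NestinCreERT2 and R26;EYFP on a mixed C57BL/6;Sv/129 background, so a tamoxifen-inducible Cre under Nestin control acted in both, and the control was heterozygous rather than wild type. At 6 to 10 weeks of age they received tamoxifen by gavage, 200 mg/kg per day for 5 days, and tissue was collected 10 days later. Each library came from the pooled subventricular zones of multiple mice and at least 200000 YFP-positive cells. A February batch held THC 1 and TKO 1, and a November batch held the other 2 libraries of each genotype.

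Depth was even, at 15536084 to 16961817 reads per library. Rbl1, which encodes p107, had normalized counts of 520, 497 and 646 in THC and 42.0, 18.3 and 14.5 in TKO, and fell by 4.56 on the log2 scale (limma, Benjamini-Hochberg adjusted p = 2.3e-06). Rb1 was higher in TKO (log2 change 0.82, adjusted p = 0.00066) and Rbl2, which encodes p130, was not called (-0.13, adjusted p = 0.54). Counts over whole genes do not separate the floxed exons of Rb1 and Rbl2 from the rest, so these 2 values check nothing about recombination.

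In the integrated stress response, 4 kinases sense different stresses and phosphorylate the translation factor eIF2, which lowers protein synthesis while the Atf4 and Atf5 messages, with their upstream open reading frames, are translated more. ATF4 protein pairs with other bZIP proteins and binds C/EBP-ATF response elements in genes of amino acid synthesis, transport and tRNA charging. In serine synthesis, PHGDH oxidises a glycolytic intermediate, PSAT1 transaminates the product with glutamate and PSPH releases serine, which SHMT2 splits in mitochondria to glycine and a folate-bound carbon unit that MTHFD2 oxidises. In the brain, PHGDH is known as an enzyme of neural progenitors and astrocytes rather than neurons. Message levels are measured here, and ATF4 protein and translation are not.

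The promoter windows of the genes were read first, because a response element is the feature through which ATF4 is known to act on the others. The RefSeq windows (GRCm38.p6) run from 250 bases before to 50 bases after a start, and all 10 genes matched, with 12 windows, since Atf5 and Psat1 have 2 each. The core of the C/EBP-ATF response element was searched as TGATGNAA on both strands. It was found in 3 of the 12 member windows, those of Chac1, Trib3 and Asns, and in 3.97% of all 32851 windows. These stretches are shown because they hold a match, in capitals, and that of Atf5 because Atf5 had the largest change of the 10 genes and its windows hold none. Each is written 5′ to 3′ on the gene's strand.
Chac1, chr2:119350992-119351228, plus strand: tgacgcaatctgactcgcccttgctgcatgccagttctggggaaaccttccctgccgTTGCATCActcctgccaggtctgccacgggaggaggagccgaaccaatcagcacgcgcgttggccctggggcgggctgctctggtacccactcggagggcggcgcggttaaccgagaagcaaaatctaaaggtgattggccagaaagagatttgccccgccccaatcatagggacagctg
Trib3, chr2:152344026-152344055, minus strand: agctcaggtTTACATCAgccgggcggggat
Asns, chr6:7693215-7693244, minus strand: gtcccagccacaTGATGAAActtcccgcac
Atf5, chr7:44816659-44816908, minus strand: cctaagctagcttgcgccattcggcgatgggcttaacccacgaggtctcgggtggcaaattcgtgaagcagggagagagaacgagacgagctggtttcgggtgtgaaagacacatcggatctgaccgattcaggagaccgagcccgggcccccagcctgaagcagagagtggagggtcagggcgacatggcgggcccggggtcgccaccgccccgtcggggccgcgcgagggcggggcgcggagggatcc

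The match of Asns lay on the gene's strand, 23 to 16 bases before the RefSeq start. That of Chac1 lay on the other strand, 193 to 186 bases before the start, and that of Trib3 on the other strand, just after it. The E2F motif TTTNGCGC was in 0 of the 12 member windows and in 1.38% of all windows. The endoplasmic reticulum stress response element, by its usual consensus, was in 0 of the 12 and in 0.119% of all. These letters describe windows of 300 bases only.

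Between the genotypes, 6 of the 10 genes were higher in TKO, 0 were lower and 4 were not called. The 6 were Atf4, Atf5, Ddit3, Trib3, Psat1 and Mthfd2. Values are the authors' normalized counts, and a change is the difference in log2(normalized count + 1), TKO over THC, with batch in the model (limma). A gene was tested where at least 3 libraries reached a normalized count of 10 and was called at a Benjamini-Hochberg adjusted p under 0.05 over 17278 genes, of which 27.9% were called, 14.3% as higher and 13.6% as lower. The median change was 0.67 over the 10 genes, with 0.73 in the February pair and 0.64 in November, beside -0.0003 over all genes tested.

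In 7 of the 10 genes every TKO library lay above every THC library, as in 19.4% of genes tested. In 0 of the 10 did every TKO library lie below, as in 19.5% of genes tested. Asns, Phgdh and Shmt2 overlapped between the genotypes. In sorted bulk cells, a change in the share of a cell type and a change in RNA per cell cannot be told apart.

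**Figure D1:**
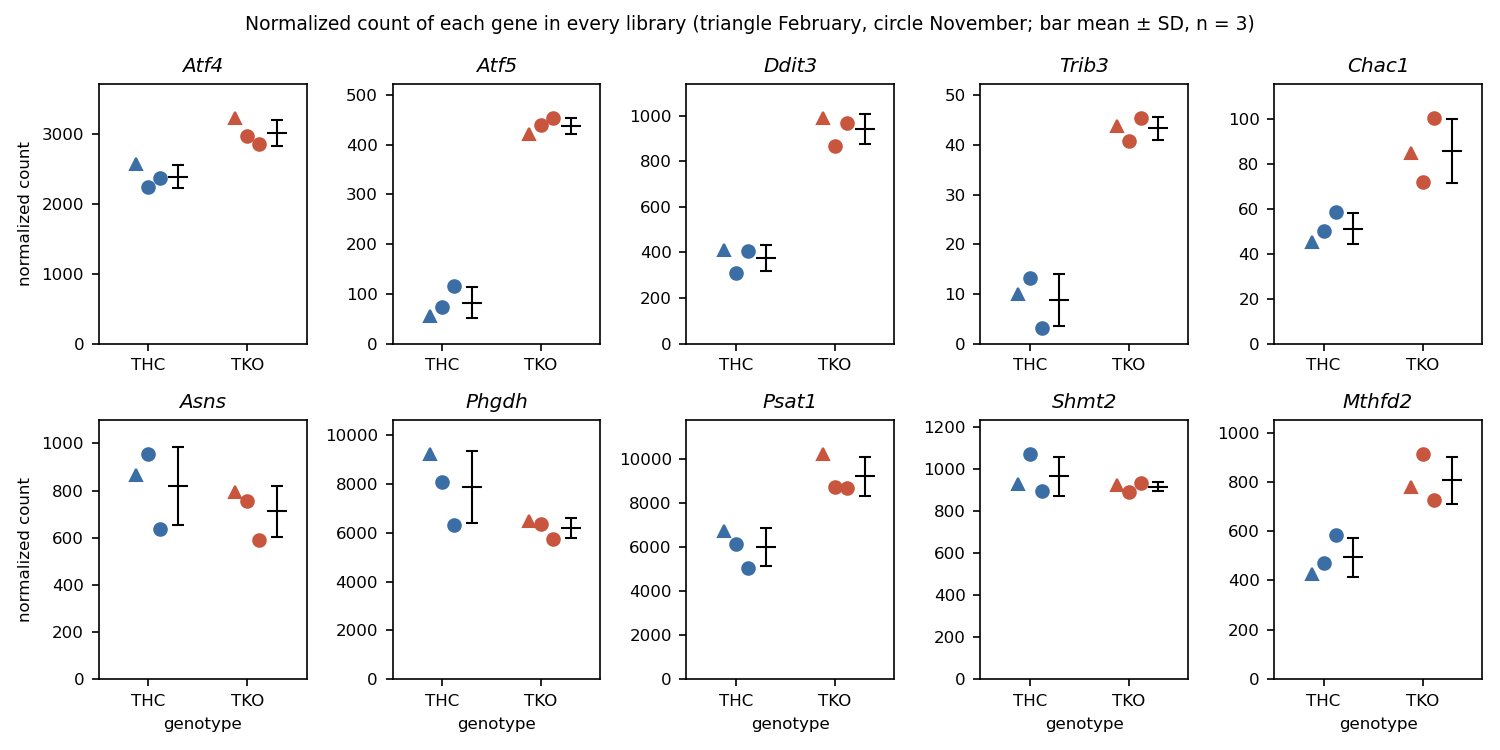
Normalized count of each of the 10 genes (y axes, linear from 0) in the 3 THC and 3 TKO libraries, with triangles for February, circles for November and bars for the mean ± SD (n = 3). The TKO points lie above the THC points in 7 panels and overlap with them for Asns, Phgdh and Shmt2.

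Atf4 (chromosome 15, 80255184 to 80257541, plus strand, GRCm38, here and below the span of the whole gene in GENCODE M21) had normalized counts of 2562, 2239 and 2363 in THC 1, 2 and 3 and of 3223, 2964 and 2861 in TKO 1, 2 and 3. All TKO libraries were above all THC libraries. The mean went from 2388 ± 163 to 3016 ± 186 (SD, n = 3), a change of 0.34 (95% interval 0.09 to 0.59, adjusted p = 0.0465), with a February value of 0.33 and a November value of 0.34. The rise stood just inside the threshold. Leaving out any 1 of the 6 libraries ended the call at a change of 0.31 to 0.36, with adjusted p-values of 0.154 without THC 1, 0.127 without THC 2, 0.069 without THC 3, 0.151 without TKO 1, 0.144 without TKO 2 and 0.088 without TKO 3. Without THC 1 or TKO 1, 1 February library was left, which with batch in the model carries no comparison of genotypes. Both fits thus gave the November change of 0.34 and were not separate checks. The adjusted p was 0.104 with replicate number as a block, and in the authors' deposited table it was 0.0509.

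Atf5 (chromosome 7, 44812256 to 44816658, minus strand) encodes a bZIP factor related to ATF4 that is known in the brain for keeping progenitors from differentiating. Its normalized counts were 56.1, 72.7 and 116 in THC and 421, 438 and 453 in TKO. The lowest TKO library was several times above the highest THC library, and the TKO libraries lay closer together than those of THC. The mean was 81.7 ± 31.0 in THC and 437 ± 16.2 in TKO (SD, n = 3), and the rise was 2.47 (SE 0.23, adjusted p = 1.4e-05), a 5.55-fold change. It was 2.88 in the February pair and 2.27 in November.

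Atf5 shares 82 exonic bases with Nup62 and 82 with Il4i1, both on the opposite strand, and the library chemistry does not keep the strand. Nup62, which encodes a nuclear pore protein, had normalized counts of 1025, 1244 and 1354 in THC and 2394, 2391 and 1990 in TKO and rose too, by 0.91 (adjusted p = 0.0005). Il4i1 was not called (-0.04, adjusted p = 0.97). How many Atf5 reads came from the shared bases was not tested.

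Ddit3 (chromosome 10, 127290774 to 127296288, plus strand) encodes CHOP, a C/EBP-type factor induced under prolonged stress. It had normalized counts of 411, 310 and 406 in THC and 990, 868 and 969 in TKO, with a wide gap between the genotypes. The mean went from 376 ± 57.1 to 942 ± 64.8 (SD, n = 3). The rise was 1.33 (SE 0.15, adjusted p = 4.5e-05), a 2.52-fold change, with a February value of 1.27 and a November value of 1.37. Its exons share 105 bases with a second gene annotated as Ddit3 on the same strand, and 13 with Gm4189 on the opposite strand. They also share 68 bases with the methionyl-tRNA synthetase gene Mars1 on the opposite strand, which was not called (0.20, adjusted p = 0.28). How reads in the shared bases were counted was not tested.

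Trib3 (chromosome 2, 152337422 to 152344032, minus strand) encodes a pseudokinase that is induced by ATF4 and CHOP and is known to hold ATF4 activity back. It was the scarcest of the 10 genes. The THC libraries held 10, 14 and 3 reads, with exact Poisson 95% limits of 4.80 to 18.4, 7.65 to 23.5 and 0.62 to 8.77, and the TKO libraries held 45, 38 and 47. These limits cover counting error only.

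The normalized counts of Trib3 were 10.0, 13.2 and 3.03 in THC and 43.9, 40.8 and 45.4 in TKO, so the groups stood well apart at this low level. It rose by 2.37 (95% interval 1.23 to 3.51, adjusted p = 0.0053), from a mean of 8.76 ± 5.21 to 43.4 ± 2.32 (SD, n = 3), with a February value of 2.03 and a November value of 2.54.

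Chac1 (chromosome 2, 119351229 to 119354381, plus strand), which encodes an enzyme that breaks down glutathione, was not called. Its normalized counts were 45.1, 50.1 and 58.6 in THC and 84.9, 72.0 and 100.4 in TKO, and the groups did not overlap. The mean was 51.2 ± 6.81 and 85.8 ± 14.2 (SD, n = 3), and the difference was 0.73 (95% interval 0.10 to 1.36, adjusted p = 0.082), with a February value of 0.90 and a November value of 0.64.

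Asns (chromosome 6, 7675169 to 7693254, minus strand) encodes asparagine synthetase, a textbook ATF4 target, and its window holds a response element match. It had normalized counts of 868, 956 and 637 in THC and 792, 756 and 588 in TKO. The ranges overlapped, and the lowest library of each genotype was replicate 3. The difference was -0.20 (95% interval -0.56 to 0.17, adjusted p = 0.44), with a February value of -0.13 and a November value of -0.23.

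Of the serine synthesis enzymes, Psat1 was called as higher and Phgdh was not called. Phgdh (chromosome 3, 98313170 to 98339990, minus strand), the entry step, had normalized counts of 9244, 8097 and 6315 in THC and 6500, 6375 and 5745 in TKO. THC 1 and THC 2 were above all TKO libraries and THC 3 was below 2 of them. The mean was 7885 ± 1476 in THC and 6207 ± 405 in TKO (SD, n = 3), a difference of -0.33 (95% interval -0.65 to -0.01, adjusted p = 0.12), with a February value of -0.51 and a November value of -0.24. Without THC 3 it was called as lower (-0.46, adjusted p = 0.034). The pseudogene Phgdh-ps1 reached 2.00 in THC 1 and was at 0 elsewhere.

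Psat1 (chromosome 19, 15904678 to 15947337, minus strand), the next step, had normalized counts of 6760, 6170 and 5064 in THC and 10254, 8737 and 8700 in TKO. Every TKO library was above every THC library. The mean went from 5998 ± 861 to 9230 ± 886 (SD, n = 3), a rise of 0.63 (95% interval 0.33 to 0.93, adjusted p = 0.0048) or 1.55-fold, with a February value of 0.60 and a November value of 0.64. Psph, the last step of the pathway, was not called (0.11, adjusted p = 0.56).

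Of the mitochondrial pair, Mthfd2 was called as higher and Shmt2 was not called. Shmt2 (chromosome 10, 127517123 to 127522444, minus strand) had normalized counts of 928, 1074 and 896 in THC and 923, 894 and 937 in TKO. Apart from THC 2 all libraries lay close together, and the difference was -0.07 (95% interval -0.35 to 0.21, adjusted p = 0.74), with a February value of -0.01 and a November value of -0.10. Shmt2 shares 32 exonic bases with Ndufa4l2 on the opposite strand, which fell by 1.91 on the log2 scale (adjusted p = 0.0025) from normalized counts of 139, 162 and 112 to 34.2, 21.5 and 60.8.

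Mthfd2 (chromosome 6, 83305691 to 83325908, minus strand), the mitochondrial dehydrogenase that is abundant in embryonic and tumour cells, had normalized counts of 427, 470 and 583 in THC and 779, 913 and 727 in TKO. All TKO libraries were above all THC libraries, with THC 3 the nearest to them. The mean went from 493 ± 80.4 to 807 ± 96.2 (SD, n = 3), a rise of 0.71 (95% interval 0.38 to 1.05, adjusted p = 0.0043) or 1.64-fold, with a February value of 0.87 and a November value of 0.64.

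**Figure D2:**
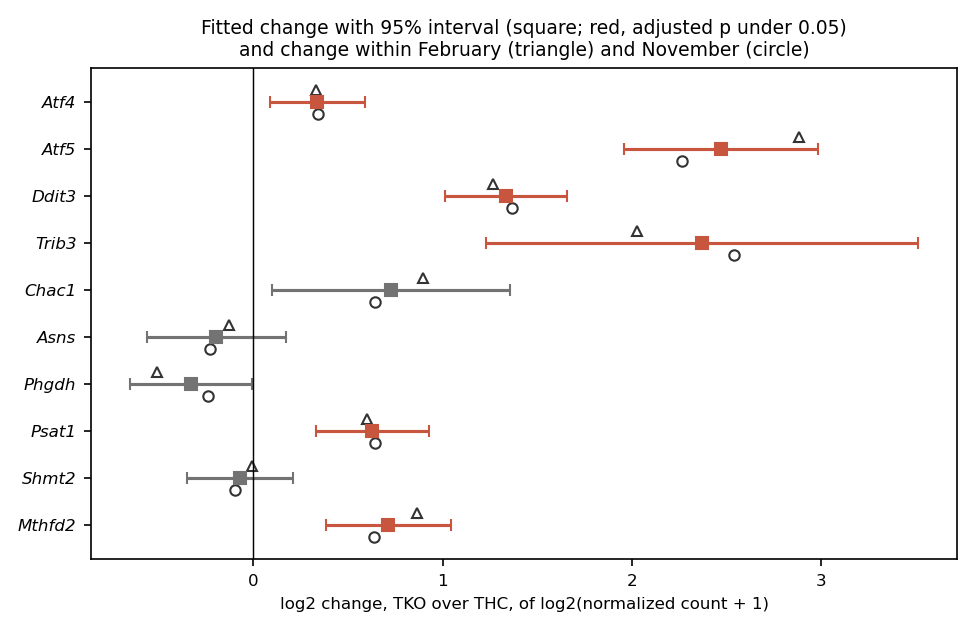
Log2 change, TKO over THC, of each of the 10 genes (x axis), as squares with the 95% interval from limma, red where called and grey where not, with triangles for the February value and circles for November. The intervals of Asns and Shmt2 span 0, those of Atf4, Chac1 and Phgdh come close to it, and Atf5, Trib3 and Ddit3 lie farthest to the right.

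Ratios within a library do not depend on how libraries were scaled. The pairs were chosen with their values known, as consecutive steps of a pathway, and the ratios are not per length, so only their difference between libraries can be read. Psat1 over Phgdh was 0.731, 0.762 and 0.802 in THC and 1.58, 1.37 and 1.51 in TKO. The THC libraries were nearly equal, and every TKO library was far above them. The mean was 0.765 ± 0.0354 in THC and 1.49 ± 0.106 in TKO (SD, n = 3).

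Mthfd2 over Shmt2 was 0.460, 0.438 and 0.6505 in THC and 0.844, 1.02 and 0.776 in TKO. The groups were apart here too, but THC 3 and TKO 3 came near each other. The mean was 0.516 ± 0.117 in THC and 0.8805 ± 0.127 in TKO (SD, n = 3). For both ratios the exact two-sided permutation p was 0.1, the smallest that 3 against 3 libraries can give. Benjamini-Hochberg adjustment over the 2 ratios leaves it at 0.1. The libraries were permuted without regard to batch, so this p takes no account of it.

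**Figure D3:**
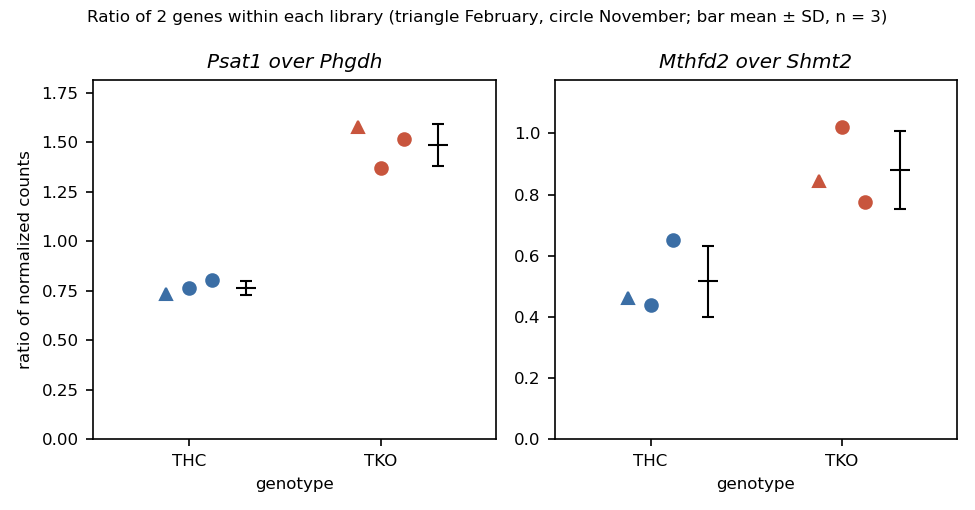
Ratio of the normalized counts of Psat1 over Phgdh (left) and of Mthfd2 over Shmt2 (right) in each library (y axes, linear from 0), with triangles for February, circles for November and bars for the mean ± SD (n = 3). In both panels the TKO libraries lie above the THC libraries, with a wider gap for Psat1 over Phgdh.

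Levels of different genes were compared per length, as the normalized count per kilobase of exon, with the exons of all annotated transcripts of a gene merged. For Psat1 and Mthfd2 the annotated span begins well before the RefSeq start, so the merged length holds exons that lie before it. Whether these exons were used in these cells was not tested, and the order of genes depends on it. In THC the order was Phgdh (3172 ± 594), Psat1 (1410 ± 202), Atf4 (1013 ± 69.1), Shmt2 (311 ± 30.5), Asns (299.9 ± 60.1), Ddit3 (219 ± 33.3), Mthfd2 (141.5 ± 23.0), Atf5 (41.0 ± 15.5), Chac1 (31.3 ± 4.16) and Trib3 (4.12 ± 2.45; SD, n = 3). Neighbours whose THC libraries overlapped were Shmt2 with Asns, Asns with Ddit3, and Atf5 with Chac1. By its mean per kilobase over all libraries, Phgdh stood at percentile 99.0 and Trib3 at percentile 16.3 of the genes tested that have an exon length.

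In TKO the level per kilobase was 2497 ± 163 for Phgdh and 2170 ± 208 for Psat1, whose libraries now overlapped. Ddit3 moved from rank 6 to rank 4, at 550.0 ± 37.8 per kilobase, above Shmt2 (295 ± 7.01) and Asns (260.4 ± 39.8). Mthfd2 (231 ± 27.6) and Atf5 (219 ± 8.12) overlapped, as did Shmt2 with Asns and Asns with Mthfd2. Chac1 (52.4 ± 8.70) and Trib3 (20.4 ± 1.09) stayed last.

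The 2 batches gave the same sign for each of the 10 genes. A term for the difference of the genotype change between batches was called in 0 of the 10 genes by limma (smallest adjusted p = 0.944) and in 0 at an unadjusted p under 0.05, against 0.341% and 6.97% of genes tested. February holds 1 library per genotype, so this term is imprecise. On the reads recovered from the normalized counts, edgeR called 5 of the 10 genes (27.7% of genes) and DESeq2 called 6 (28.1%). The authors' deposited table calls 5 of the 10, and 4817 of 32018 genes in all (15%). That share is of a longer list than the 17278 genes given to edgeR and DESeq2, which called 4778 and 4856. The percentages are therefore not on the same footing. In each case the called genes among the 10 were higher, and Atf4 was the gene that changed sides.

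Around Atf4, the 20 genes of integrated stress response control were mostly not called. They encode the kinases, eIF2 and its exchange factor, and phosphatase subunits, with Gcn1, Impact and the translation factors Eif2a, Eif2d, Denr and Mcts1. Of these 1 was higher and 1 lower, beside 14.3% and 13.6% of all genes, and the median change was 0.00. The counts of every list below stand beside the same shares of all genes. The exception upward was Eif2ak2, which encodes the double-stranded RNA sensor PKR and rose by 1.73 (adjusted p = 1.6e-05), from a normalized count of 200 ± 21.5 to 664 ± 79.1 (SD, n = 3). The gene called lower was Impact, an inhibitor of GCN2 activation, which fell by 1.04 on the log2 scale (adjusted p = 0.00018), from 2209 ± 368 to 1079 ± 256. A second gene was called lower without THC 1 or without TKO 1.

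The other kinases, named for their role, were not called. Eif2ak1 (HRI) had a difference of -0.12 (adjusted p = 0.51), Eif2ak3 (PERK) of 0.05 (adjusted p = 0.85) and Eif2ak4 (GCN2) of -0.26 (adjusted p = 0.27). Ppp1r15a, which encodes the phosphatase subunit GADD34 and is itself induced by ATF4 and CHOP, was not called (-0.32, adjusted p = 0.33), with values of opposite sign in February (0.49) and November (-0.72). The difference between the batches had an adjusted p of 0.22 for it (limma).

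Among 17 bZIP factors that can pair with ATF4 or belong to related stress pathways, 7 were higher and 2 lower, with a median of 0.31. Cebpd rose by 2.15 (adjusted p = 2.7e-06), Cebpg, a known partner of ATF4, by 0.81 (adjusted p = 0.00047) and Nfe2l2, the oxidative stress factor NRF2, by 0.71 (adjusted p = 0.0010). Xbp1, the factor of the IRE1 branch of the unfolded protein response, fell by 0.80 on the log2 scale (adjusted p = 0.0011). Creb3 fell by 0.40 (adjusted p = 0.035), a call kept in 1 of 6 fits that leave out a library. The number lower was 1 without THC 1, THC 2 or any TKO library.

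Among 28 other genes described as ATF4 targets, the directions were mixed: 8 were higher, 6 were lower and the median was -0.15, with a February value of 0.17 and a November value of -0.23. Gdf15, a secreted stress hormone, had the largest rise of the list, 4.83 (SE 0.36, adjusted p = 3.2e-06), from a normalized count of 7.58 ± 2.99 to 247 ± 88.0 (SD, n = 3). Sesn2, which restrains mTORC1, rose by 1.32 (adjusted p = 0.00016) and the death receptor gene Tnfrsf10b by 1.94 (adjusted p = 0.0016). Gdf15, Sesn2 and Tnfrsf10b are also known p53 targets.

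Within the same list, Cbs and Cth, the 2 enzymes of transsulfuration, which uses serine to make cysteine, fell by 0.75 (adjusted p = 0.0014) and 0.74 (adjusted p = 0.0083) on the log2 scale. The autophagy gene Map1lc3b fell by 0.66 (adjusted p = 0.0036). Cth kept its call in 4 of 6 fits that leave out a library. The number higher was 5 without TKO 3, and the number lower was 4 without THC 1, THC 2 or TKO 1.

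Of 11 amino acid transporters linked to ATF4, 5 were higher and 1 lower, with a median of 0.11. Slc38a1 and Slc38a2, glutamine carriers, rose by 0.85 (adjusted p = 0.00046) and 0.46 (adjusted p = 0.019), and Slc43a1 rose by 0.91 (adjusted p = 0.011). The glycine transporter gene Slc6a9 fell by 1.69 on the log2 scale (adjusted p = 2.2e-05). Slc38a2 kept its call in 1 and Slc43a1 in 4 of 6 fits that leave out a library. The number higher was 3 without THC 1, THC 3 or TKO 1, 1 without TKO 2 or TKO 3, and 2 with replicate number as a block. Without THC 3, 2 were lower.

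Of 20 cytosolic aminoacyl-tRNA synthetases, a class of ATF4 targets, 1 was higher, 0 were lower by limma (1 at an unadjusted p under 0.05, 0 by edgeR, 1 by DESeq2) and the median was 0.06. The gene called was Vars, at 0.46 (adjusted p = 0.014), and it was not called without THC 1 or TKO 1, which left 0 higher. Without THC 2, 2 were higher, and without TKO 2, 1 was lower.

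Around the serine enzymes, 34 other genes of serine, glycine and folate metabolism were tested. Of these 7 were higher and 4 lower, with a median of 0.01, beside 14.3% and 13.6% of all genes tested. Among those that rose were genes of the cytosolic and nuclear supply of thymidylate: Shmt1, the serine-using counterpart of Shmt2, rose by 1.45 (adjusted p = 0.00014) and Tyms, thymidylate synthase, by 1.27 (adjusted p = 8.6e-05). The mean normalized count of Shmt1 went from 588 ± 171 to 1577 ± 179 (SD, n = 3), and that of Tyms from 1744 ± 376 to 4175 ± 634. Both serve DNA replication. The proliferation markers given below were higher in TKO too, and a link was not tested.

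Lower in the folate list were Cbs, Mtfmt (mitochondrial formyltransferase, fell by 0.55, adjusted p = 0.025) and Gldc, the decarboxylase of the glycine cleavage system (fell by 0.56, adjusted p = 0.026). Mtfmt kept its call in 1 and Gldc in 2 of 6 fits that leave out a library. The number lower was 1 or 2 without THC 1, THC 2 or any TKO library. Mthfd1, whose cytosolic enzyme takes up formate, and Mthfd1l, whose mitochondrial enzyme releases formate after the MTHFD2 step, were not called (0.32 and 0.51, adjusted p = 0.065 and 0.083).

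**Figure D4:**
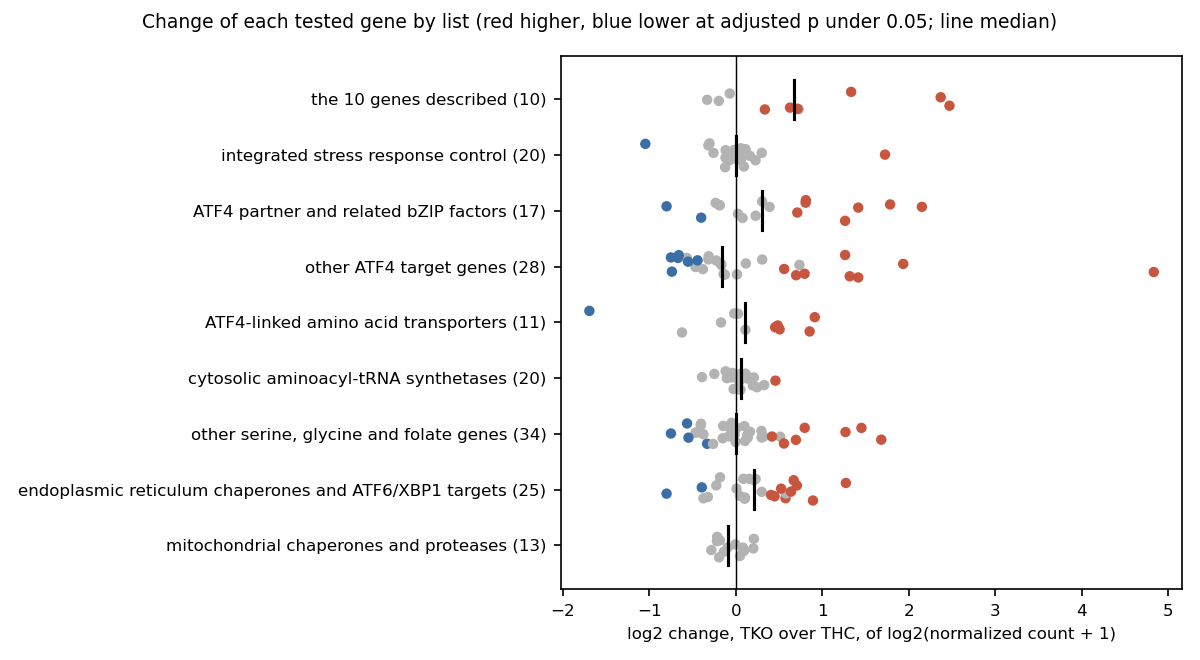
Log2 change, TKO over THC (x axis), of each tested gene in the 10 described genes and in 8 related lists (rows, number tested in brackets), with red for genes called higher, blue for lower, grey for not called and a black line for the median. The lists hold genes on both sides of 0, and medians lie between -0.15 for other ATF4 targets and 0.67 for the 10 genes.

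The neighbouring stress pathways were read in the same way. Of 25 endoplasmic reticulum chaperones and ATF6 or XBP1 targets, 9 were higher and 2 lower (median 0.21). Manf rose by 0.89 (adjusted p = 0.0013), Hsp90b1 by 0.71 (adjusted p = 0.0033) and Dnajb11 by 0.58 (adjusted p = 0.0037). The 2 lower were Xbp1, already counted among the bZIP factors (fell by 0.80, adjusted p = 0.0011), and Derl1. Derl1 fell by 0.39 (adjusted p = 0.024, kept in 1 of 6 fits that leave out a library). Hspa5, the chaperone BiP, was not called (0.30, adjusted p = 0.21). The number higher was 4 without THC 1 or TKO 1 and 6 without THC 2 or TKO 3, and the number lower was 1 without any THC library, TKO 1 or TKO 2. Of 13 mitochondrial chaperones and proteases, 0 were called by limma, 0 at an unadjusted p under 0.05 and 0 by edgeR or DESeq2 (median -0.09). These are genes of the mitochondrial stress response, to which ATF5 is linked.

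The genes whose pattern over the 6 libraries was most like that of Atf4 were Ankrd13c (Pearson r = 0.997), Cep85 (0.994) and Pacsin2 (0.992). For Phgdh they were Fbxo7 (0.995), Ncoa4 (0.994) and Atf6b (0.990). They were sought among 11905 genes with a mean normalized count of at least 100, over 6 libraries that share genotype, batch and preparation, so the values describe likeness only.

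Markers of cell state and cell type differed between the genotypes beside the 10 genes. All 14 proliferation markers were higher (median 1.35), with a summed normalized count of 34377 to 51684 in THC and 102486 to 120299 in TKO, and of 15 immediate early and cell dissociation genes 8 were higher and 1 lower (median 0.59; 102859 to 127800 against 165263 to 180082). The genes of the 10 called higher, Atf4, Atf5, Ddit3, Trib3, Psat1 and Mthfd2, rose beside both lists, as any gene higher in TKO does. Of 14 astrocyte and quiescent stem cell markers, 7 were lower and 1, Gfap, higher (median -0.57, sum 167819 to 291950 against 145784 to 192468). The groups overlapped in this sum, and in Phgdh, Asns and Shmt2, whose differences were below 0. A link was not tested.

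Of 12 oligodendrocyte markers, 7 were lower and 1 higher (median -1.60; 92551 to 108084 against 22023 to 35235), and of 10 endothelial and mural markers 8 were lower (median -1.25; 12757 to 21350 against 4960 to 7704). Of 10 neuroblast markers 8 were lower (median -0.66; 41630 to 57843 against 27520 to 36225), and of 7 mature neuron markers 3 were lower (median -0.91; 1636 to 2465 against 974 to 1034). Of 8 progenitor markers 2 were higher and 2 lower (median 0.29, sum 46983 to 61220 against 31585 to 45562). The 2 higher were Fabp7 (mean 3018 in THC, 7592 in TKO) and Nes (413 in THC, 957 in TKO). The 2 lower were Ccnd2 (36746 in THC, 16858 in TKO) and Dlx1 (5063 in THC, 3607 in TKO), so the fall of the sum rests largely on Ccnd2. Of 12 microglia and macrophage markers 5 were higher (median 1.02; 397 to 3759 against 811 to 5973), and of 7 ependymal markers 1 was higher and 2 lower (median -0.24; 3827 to 11267 against 4661 to 5953). Several of these counts moved by more than 1.5 times when a library was left out. The immediate early and dissociation genes had 5 higher without THC 1 or TKO 1. The microglia list had 8 higher without THC 2, 3 without THC 3 and 2 without TKO 2. The progenitor list had 4 higher without THC 1 or TKO 1, the ependymal list 4 lower without either of these, and the oligodendrocyte list 0 to 3 higher over the 6 libraries. No marker of any list was at 0 in all libraries. The part of cell composition, proliferation and handling stress in the changes of the 10 genes was not tested.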

How the data were processed

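RNA-seq of 6 libraries (3 THC, 3 TKO) was used, with groups and batches from the labels. Per the submitters' processing notes, HISAT2, featureCounts (Subread), DESeq2 and GRCm38 were used, with versions, annotation and read filters not given in the sources used here. The authors' deposited table holds a normalized count signal per library, and, per the file headers, a log2 fold change, p-values, a Wald score and a weight score. Every count value was a whole multiple of 1 step per library (0.944 to 1.07, within 0.001 read), which gave back the reads.

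Values were tested with limma 3.58.1 (R 4.3.3) as log2(value + 1), with an intensity trend, batch and genotype, on 17278 genes with at least 10 in 3 libraries. The model had 3 residual and 8.90 prior degrees of freedom. The code was run on simulated counts that held a genotype effect and no batch effect, so that run is no check of the batch term. Alternatives were other pseudocounts and filters, TMM scaling, edgeR 4.0.16, DESeq2 1.42.0, no batch term, a replicate block, November alone, leaving out each library, and the authors' values. The plan foresaw a count test had the table held raw counts. The 10 genes and all lists were chosen with earlier results of these data known. Some genes, among them Cebpb, Atf3, Cbs and Xbp1, stand in several lists and are counted in each, so the lists are not independent. Of each list, up to 3 called genes per direction with the smallest adjusted p were named; 1 gene that this rule names is not reported here. Genes named by role or for overlap were chosen after their values were seen. Those named by role were Psph, Mthfd1, Mthfd1l, Eif2ak1, Eif2ak3, Eif2ak4, Ppp1r15a and Hspa5. In the closing section they were Atf3, Slc7a11, Gcsh, Amt, Dld and Ddit4. Each library is a pool of mice that the series calls a biological replicate.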

Additional observations from a re-analysis of the deposited data

How the results depend on the processing

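Over 17 alternatives, 5 or 6 of the 10 genes were higher, and Atf5, Ddit3, Psat1 and Mthfd2 were called in each. Trib3 was called in the 16 that tested it, at 1.80 to 2.84, since a minimum of 50 removes it. Atf4 lost its call in 13 of 17 (adjusted p 0.0281 to 0.154). Chac1 and Asns were called in none. Leaving out each library in turn, 0 to 1 of the genes were lower, the 1 being Phgdh without THC 3. For each of the 10 genes, the fits without THC 1, without TKO 1 and on November alone gave the same change, so these are not separate checks. Shmt2 ranged from -0.13 without THC 3 to 0.0144 without THC 2, where it changed sign (adjusted p = 0.96). The cause was not tested. TMM scaling moved the median change of all genes by -0.0149. The replicate numbers were not shown to pair the samples: deviations of same-numbered libraries from their group means correlated at 0.23, -0.106 and 0.14. THC 3 correlated more with TKO 2 (0.18) than with TKO 3. The value for THC 1 with TKO 1, which share the February batch, was the highest of all. With 3 libraries per group, such correlations neither show nor exclude pairing. With the replicate block, 5 of the 10 genes were higher and 0 lower, and 2147 genes were higher and 1922 lower in all. Depth limits Trib3 most, with 3 to 14 reads per THC library.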

Other observations

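Some genes around ATF4 had values that a mean over batches hides. Atf3, an early bZIP stress factor that ATF4 is known to induce, rose by 1.42 (limma, adjusted p = 0.0040), with 2.63 in the February pair and 0.81 in November. Slc7a11, the cystine carrier of glutathione synthesis, was called higher (0.51, adjusted p = 0.034) although its groups overlapped, with -0.02 in February and 0.77 in November. The difference between the batches had an adjusted p of 0.056 for Atf3 and 0.43 for Slc7a11 (limma), so neither was called.

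In the glycine cleavage system, Gcsh, the carrier protein, rose by 0.80 (limma, adjusted p = 0.0004), with the groups apart. Gldc was called lower (fell by 0.56), but its groups overlapped and it kept its call in 2 of 6 fits that leave out a library. Amt (-0.44, adjusted p = 0.20) and Dld (-0.05, adjusted p = 0.81) were not called. Ddit4, an mTORC1 inhibitor and ATF4 target like Sesn2, was not called (-0.56, adjusted p = 0.061), although its groups did not overlap and Sesn2 rose.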
